A study of Caenorhabditis elegans with 20 samples.

Results

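The glutathione S-transferase genes of Caenorhabditis elegans were taken as all genes of the deposited table whose WormBase symbol starts with gst-, gsto- or gstk-. There were 49 such genes (44 gst-, 3 gsto- and 2 gstk-) among 46904 genes in the table, and 48 of them were abundant enough to be among the 16980 genes tested. The remaining one, gst-37, had 18 counts in all samples together. Poly(A) RNA from whole animals at the young adult stage was sequenced in 4 groups of 3 replicates: ns889 animals with the mold Penicillium brevicompactum on the plate, ns889 animals without mold, wild-type (WT) animals with mold and WT animals without mold. Animals of all 4 groups had Escherichia coli OP50 as food and were collected about 48 hours after L1 arrest at 20 C. The gene hit by the ns889 allele is not named in the labels, so its level could not be checked. Nothing in the labels tells whether replicates came from separate cultures, and p-values therefore cover only the spread among these 12 samples, which may be technical.

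Glutathione S-transferases attach the tripeptide glutathione to reactive or foreign compounds, a step of phase II detoxification, and the conjugates are then carried out of the cell by transporters. In C. elegans many of these genes are transcribed in the intestine, and several are targets of the stress-response transcription factor SKN-1, which WDR-23 keeps low by marking it for degradation. A reporter of gst-4 is the usual readout of SKN-1 activity. The gsto- genes are named for the omega class and the gstk- genes for the kappa class, and gst-42 encodes a zeta-class enzyme that acts in the breakdown of tyrosine.

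Replicates held 95998037 to 115940062 counted reads. A level of 3 counts, taken as the floor of detection, equals 0.0259 to 0.0313 CPM (reads of a gene relative to the depth of its library), and this floor covers counting error only. WT without mold replicate 1 differed most from the other replicates of its group, with a root mean square log2 difference of 0.612 over all tested genes. It was followed by WT with mold replicate 3 at 0.577 and WT with mold replicate 1 at 0.533, while the other 9 replicates lay between 0.343 and 0.463. Calls of members that change without WT without mold replicate 1 are given below with and without it. In bulk samples fewer cells of a type and less RNA per cell cannot be told apart.

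The family was spread over all 6 chromosomes, with 26 members on chromosome II, 9 on V, 5 on IV, 4 on III, 3 on X and 2 on I. In WBcel235, 25 members stood in 4 runs of neighbours that lay at most 10000 bases apart. A run of gst-6, gst-7, gst-8 and gst-9 covered chromosome II from 4879885 to 4893573. Another run with 9 members (gst-20, gst-24, gst-15, gst-14, gst-12, gst-16, gst-19, gst-17 and gst-18) lay at 13608154 to 13630887 on the same chromosome. Yet another with 9 members (gst-26, gst-27, gst-28, gst-29, gst-39, gst-31, gst-32, gst-34 and gst-35) lay at 15163808 to 15185385. On chromosome IV, gst-3, gst-2 and gst-4 lay between 10139380 and 10143099. Members that lie close together can be alike in sequence, and how reads that match several members were counted is not given in the sources used here. The levels of near-identical members are therefore uncertain.

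Levels were compared between genes as reads per kilobase of counted exon and depth (RPKM, the CPM divided by the exon length in kilobases). gst-1, a pi-class enzyme, was the most abundant member in each of the 4 groups, with 194 ± 15.1 RPKM in ns889 with mold, 133 ± 9.17 RPKM in ns889 without mold, 152 ± 12.6 RPKM in WT with mold and 126 ± 2.07 RPKM in WT without mold (mean ± SD, n = 3). Over the 12 replicates it held 21.7% of the summed RPKM of the family. It was followed by gst-27 (71 RPKM), gst-10, which encodes an enzyme that conjugates the lipid peroxidation product 4-hydroxynonenal (61.2 RPKM), gst-4 (43.2 RPKM) and gst-13 (38.6 RPKM). Of all 49 members, 9 had a mean of at least 20 CPM, 11 had 5 to 20 CPM, 16 had 0.5 to 5 CPM and 13 had less than 0.5 CPM.

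**Figure D1:**
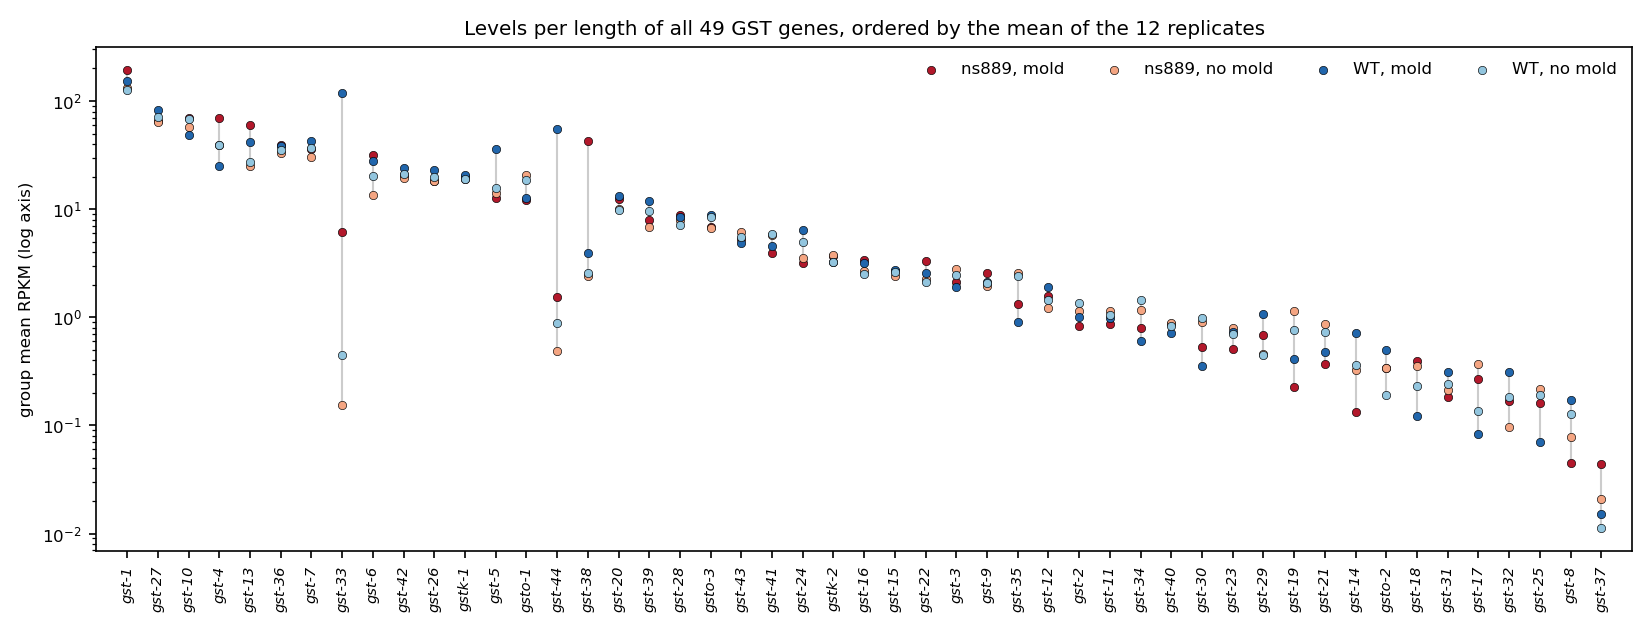
Mean RPKM of each of the 49 members (log axis) in ns889 with mold, ns889 without mold, WT with mold and WT without mold, ordered by the mean over the 12 replicates. Each point is the mean of 3 replicates, and the vertical line joins the lowest and the highest group. gst-33, gst-44 and gst-38 have the longest lines among the members with more than 10 RPKM in any group.

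The order of levels was different on mold for a few members. gst-33 ranked 19 among the 49 members in ns889 with mold (6.09 ± 2.95 RPKM) and 46 in ns889 without mold (0.156 ± 0.0347 RPKM). It ranked 2 in WT with mold (118 ± 42.7 RPKM) and 39 in WT without mold (0.451 ± 0.24 RPKM). gst-44 ranked 30 in ns889 with mold, 38 in ns889 without mold, 4 in WT with mold and 34 in WT without mold. gst-38 ranked 6 in ns889 with mold (42.9 ± 23.9 RPKM) and lay between 23 and 26 in the other groups. gst-33 and gst-44 together made up 0.523 to 1.24% of the family's summed RPKM in ns889 with mold and 0.0931 to 0.141% in ns889 without mold, against 16.8 to 25.3% in WT with mold and 0.193 to 0.238% in WT without mold. The summed level of the family was 777 ± 67.8 RPKM in ns889 with mold and 569 ± 12.1 RPKM in ns889 without mold. In WT it was 838 ± 126 RPKM with mold and 603 ± 65.5 RPKM without mold.

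**Figure D2:**
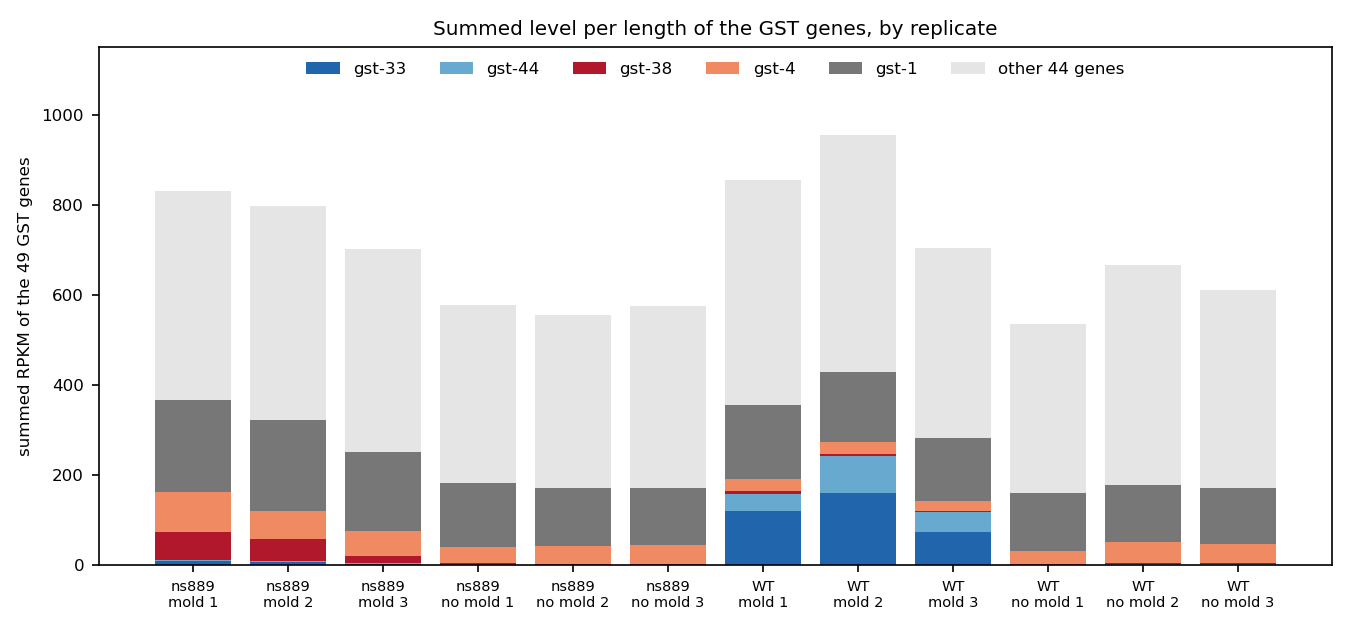
Summed RPKM of the 49 members in each replicate, from 0, with ns889 left of WT and replicates with mold left of those without. gst-33 and gst-44 form a visible part of the bar in the 3 replicates of WT with mold (16.8 to 25.3% of the sum), and gst-38 in those of ns889 with mold.

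The first comparison asked which members changed when WT animals met the mold. gst-33 and gst-44 rose by far the most, gst-5 rose 2.29-fold, and the scarce genes gst-30, gst-34 and gst-35 fell. Thus 3 of 48 members were higher and 3 were lower at an adjusted p under 0.05 (quasi-likelihood test of edgeR, Benjamini-Hochberg over all genes tested), a share of 6.25% in each direction. Among all tested genes 1.67% were higher and 4.6% were lower. The median log2 fold change of the 48 members was 0.15, and that of all genes was 0.01. The median absolute change was 0.42 for the members and 0.21 for all genes.

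gst-33 (WBGene00001781, chromosome V, 3467453 to 3468545, minus strand) had 93.5, 124 and 57.3 CPM in WT with mold, against 0.177, 0.548 and 0.328 CPM in WT without mold. These stand for 5578 to 12029 reads with mold and 21 to 52 reads without. Every replicate with mold was over 100 times the highest replicate without mold. The log2 fold change was 8.05 ± 0.53 (SE), or 265-fold (adjusted p = 7.46e-06). gst-44 (WBGene00001792, chromosome V, 16390891 to 16392406, plus strand) had 35.7, 77.8 and 41.4 CPM in WT with mold, against 0.751, 0.822 and 0.934 CPM in WT without mold. The groups did not overlap, and the log2 fold change was 5.95 ± 0.38 (adjusted p = 4.69e-06). Although both lie on chromosome V, they are far apart, and neither stands in a run of members.

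gst-5 (WBGene00001753, chromosome II, 10950350 to 10951604) had 29.2, 35 and 16.8 CPM in WT with mold, against 10.6, 13 and 11.8 CPM in WT without mold. The groups did not overlap, and WT with mold replicate 3 lay nearest to the replicates without mold. The log2 fold change was 1.2 ± 0.21 (adjusted p = 0.0114), and without WT without mold replicate 3 the adjusted p was 0.0527. With only the 2 groups compared it was 0.154. The 3 members that fell had at most 2.3 CPM in any replicate of WT. gst-30 averaged 0.254 ± 0.0446 CPM in WT with mold and 0.7 ± 0.0751 CPM in WT without mold (log2 fold change -1.46 ± 0.24, adjusted p = 0.00769). gst-35 averaged 0.692 ± 0.228 CPM in WT with mold and 1.86 ± 0.418 CPM in WT without mold (log2 fold change -1.42 ± 0.25, adjusted p = 0.011). gst-34, which lies next to gst-35, averaged 0.393 ± 0.175 CPM in WT with mold and 0.962 ± 0.316 CPM in WT without mold (log2 fold change -1.28 ± 0.34, adjusted p = 0.0465). The adjusted p of gst-34 was between 0.0528 and 0.181 in 5 of the 6 fits that left out 1 replicate of WT, all but that without WT without mold replicate 1 (0.0046). That of gst-35 was 0.051 when replicate 2 with mold was left out and 0.0503 when replicate 2 without mold was. In ns889 the same 3 genes had log2 fold changes of -0.77 ± 0.23 for gst-30 (adjusted p = 0.114), -0.95 ± 0.24 for gst-35 (adjusted p = 0.0576) and -0.56 ± 0.33 for gst-34 (adjusted p = 0.51), with no overlap between replicates with and without mold. gst-35 passed in ns889 with DESeq2, limma-voom and only the 2 groups compared.

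gst-4 (WBGene00001752, chromosome IV, 10142135 to 10143099) did not pass in WT. It had 22.4, 22 and 18 CPM in WT with mold, against 23.3, 37.4 and 36.1 CPM in WT without mold, a log2 fold change of -0.63 ± 0.20 (adjusted p = 0.0709). WT without mold replicate 1 was the lowest of its group. When it was left out, the log2 fold change of gst-4 was -0.82 with an adjusted p of 0.00544. In that fit 5 members were higher, with gst-1 and gst-13 added, and 6 were lower, with gst-4, gst-10 and gsto-1 added. The calls over all genes grew as well, to 13.1% higher and 14.8% lower. The shares over all genes moved with single replicates of WT in the other direction too: in the fits without 1 of the other replicates they were as low as 0.563% higher and 0.36% lower, both without WT without mold replicate 3. The members that passed in none of the comparisons and came nearest in WT were gst-29 (log2 fold change 1.28 ± 0.38, adjusted p = 0.0617), gsto-2 (1.41 ± 0.44, adjusted p = 0.071) and gsto-1 (-0.56 ± 0.19, adjusted p = 0.103).

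Markers of sperm moved in the same comparison. Of 22 sperm genes 8 were lower and none was higher in WT with mold, and their summed level was 520.4 to 917.5 CPM with mold, against 835.1 to 1285 CPM without. No marker of oocytes, intestine, epidermis, neurons, body wall muscle or amphid sheath glia passed in WT, and every listed marker was detected in every group. The part of tissue proportions in the changes of the family was not tested.

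**Figure D3:**
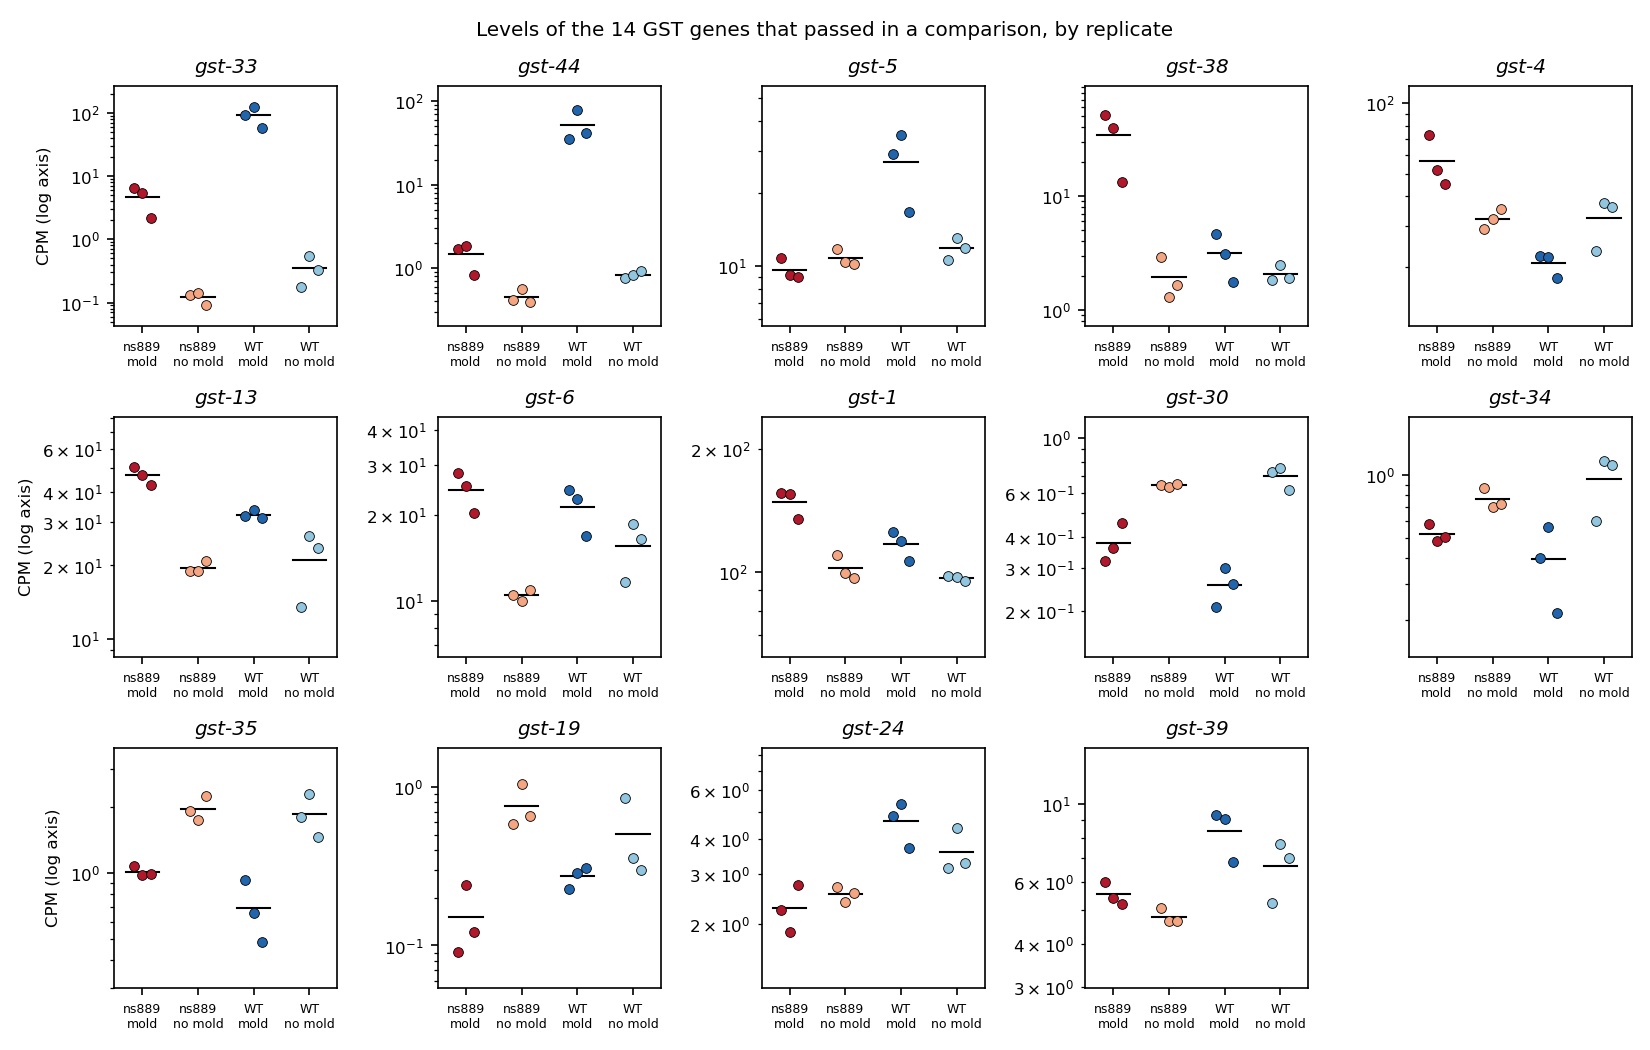
CPM by replicate (points, log axis) and group means (horizontal lines) of the 14 members that passed in at least 1 comparison, with ns889 with mold, ns889 without mold, WT with mold and WT without mold from left to right. gst-33 and gst-44 stand highest in WT with mold, while gst-38 and gst-4 stand highest in ns889 with mold.

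The second comparison asked which members changed when ns889 animals met the mold. Here 7 of 48 members rose (14.58%) and 1 fell (2.08%), while 1.86% of all tested genes were higher and 1.28% were lower. gst-33, gst-38, gst-44, gst-13, gst-6, gst-4 and gst-1 rose, and gst-19 fell. The median log2 fold change was 0.01 for the members and -0.02 for all genes, and the median absolute change was 0.40 for the members and 0.16 for all genes.

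gst-33 had 6.6, 5.45 and 2.17 CPM in ns889 with mold, against 0.133, 0.141 and 0.0906 CPM in ns889 without mold. The values without mold rest on 9 to 15 reads per replicate. All 3 replicates with mold were above all 3 without. The log2 fold change was 5.27 ± 0.55 (adjusted p = 0.000331). gst-38 (WBGene00001786, chromosome V, 15915216 to 15916079, minus strand) had 51.1, 39.4 and 13.3 CPM in ns889 with mold, against 2.91, 1.3 and 1.66 CPM in ns889 without mold. Replicate 3 with mold was the lowest of its group and was still above every replicate without mold. The log2 fold change was 4.14 ± 0.51, or 17.6-fold (adjusted p = 0.000928). In WT, gst-38 had 4.62, 3.11 and 1.78 CPM with mold, against 1.85, 2.5 and 1.93 CPM without mold, and these groups overlapped (log2 fold change 0.60 ± 0.47, adjusted p = 0.432).

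gst-44 had 1.69, 1.86 and 0.817 CPM in ns889 with mold, against 0.409, 0.562 and 0.392 CPM in ns889 without mold. The groups did not overlap, and the log2 fold change was 1.68 ± 0.36 (adjusted p = 0.0246). The adjusted p was between 0.0668 and 0.119 in 5 of the 6 fits that left out 1 ns889 replicate, all but that without replicate 3 with mold, and limma-voom gave 0.323. gst-4 had 73.4, 51.8 and 45 CPM in ns889 with mold, against 29.1, 32.1 and 35.2 CPM in ns889 without mold. All replicates with mold were higher, with a log2 fold change of 0.82 ± 0.20 (adjusted p = 0.0441). This call was lost in the same 5 fits, at an adjusted p of 0.0737 to 0.2.

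Moderate rises were measured in abundant members. gst-13 had 50.5, 46.8 and 42.7 CPM in ns889 with mold, against 19, 18.9 and 20.9 CPM in ns889 without mold (log2 fold change 1.25 ± 0.19, adjusted p = 0.00293). gst-6 had 28.1, 25.3 and 20.4 CPM in ns889 with mold, against 10.5, 10 and 10.9 CPM in ns889 without mold (log2 fold change 1.23 ± 0.19, adjusted p = 0.00347). gst-1 had 156, 155 and 135 CPM in ns889 with mold, against 110, 99.3 and 96.6 CPM in ns889 without mold (log2 fold change 0.54 ± 0.08, adjusted p = 0.00284). For each of these 3 genes the groups did not overlap. In WT their log2 fold changes had the same sign without passing the test, at 0.62 ± 0.18 for gst-13 (adjusted p = 0.0608), 0.46 ± 0.18 for gst-6 (adjusted p = 0.153) and 0.27 ± 0.08 for gst-1 (adjusted p = 0.0589). Both gst-13 and gst-1 passed in WT with DESeq2 and without WT without mold replicate 1. gst-13 also passed with RLE size factors, and gst-1 with a block for the replicate number. All 3 passed in WT without both WT replicates that stood apart. gst-6 had 24.6, 22.9 and 16.9 CPM in WT with mold, against 11.7, 18.7 and 16.5 CPM in WT without mold. Without mold, every ns889 replicate had less gst-6 than any WT replicate (log2 fold change -0.578 ± 0.185, adjusted p = 0.157). With mold the genotypes overlapped for gst-6 (0.195 ± 0.183, adjusted p = 0.514). The exons counted for gst-1 overlap those of lin-12 on the other strand by 5 bases.

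gst-19, a scarce member of the run from gst-20 to gst-18 on chromosome II, had 0.0909, 0.24 and 0.121 CPM in ns889 with mold, against 0.586, 1.04 and 0.654 CPM in ns889 without mold. These stand for 10 to 26 reads with mold and 65 to 104 reads without. The groups did not overlap, and the log2 fold change was -2.33 ± 0.47 (adjusted p = 0.0179). Its adjusted p was 0.0947 without ns889 with mold replicate 1, 0.073 without replicate 3 of that group and 0.092 without ns889 without mold replicate 2. The members nearest to the threshold in ns889 among those that passed nowhere were gsto-1 (-0.77 ± 0.20, adjusted p = 0.0564), gst-21 (-1.24 ± 0.34, adjusted p = 0.0845) and gst-41 (-0.54 ± 0.18, adjusted p = 0.149). The counted exons of gsto-1 share 50 bases with kle-2 on the other strand.

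Of the tissue markers, 1 of 10 intestine genes was higher in ns889 with mold. The summed level of the intestine list was 5068 to 5646 CPM with mold, against 3888 to 4217 CPM without mold. Most of this sum came from asp-1, with a mean of 3.08e+03 CPM with mold and 2.2e+03 CPM without. The median log2 fold change of the 10 intestine genes was 0.24. Means with and without mold were 14.5 and 13.7 CPM for elt-2, 229 and 215 CPM for pept-1, 23.9 and 21 CPM for ges-1 and 377 and 340 CPM for vha-6. They were 313 and 209 CPM for ifb-2, 334 and 267 CPM for ifc-2, 930 and 756 CPM for act-5 and 5.88 and 4.51 CPM for elt-7. The scarce marker mtl-1 had 0.0985 and 0.0982 CPM. Summed sperm markers had 883.7 to 988.7 CPM with mold, against 1111 to 1164 CPM without mold, and none of the 22 passed. The part of these levels in the rises of the family was not tested.

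**Figure D4:**
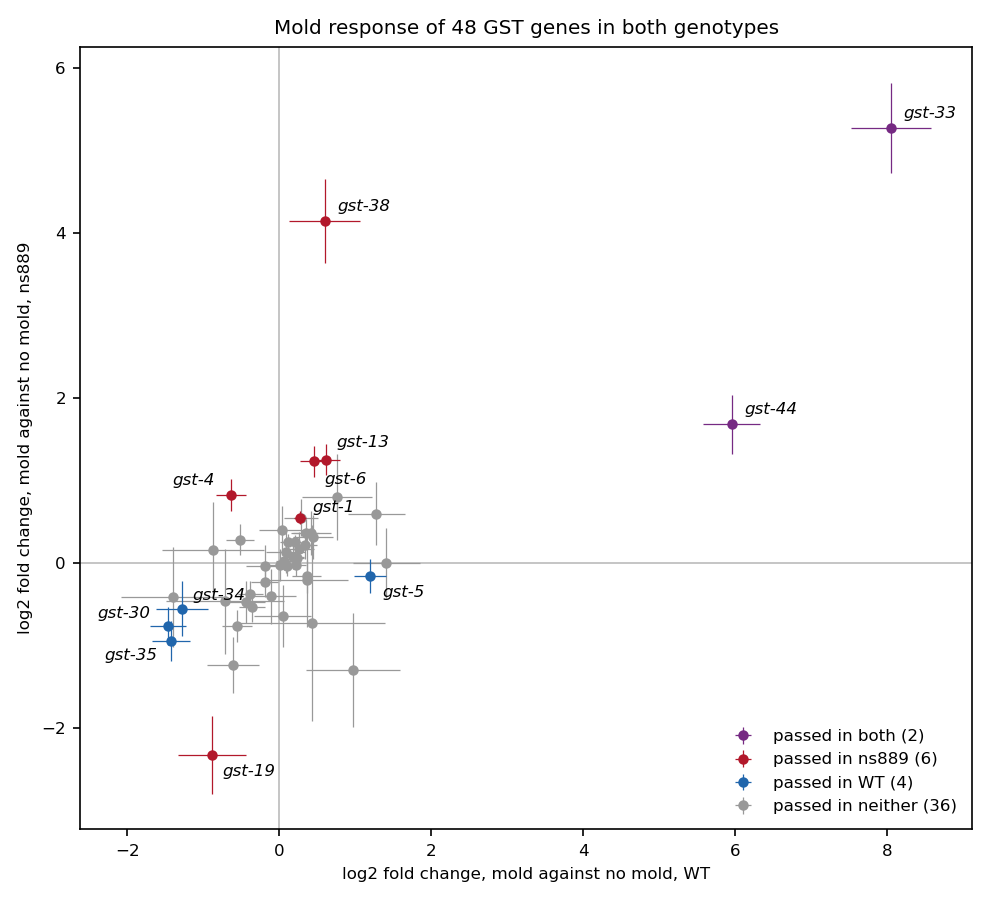
Log2 fold change with mold against without mold in ns889 (vertical) and in WT (horizontal) for the 48 tested members, with standard errors as lines and colours for the genotype in which a member passed. gst-33 and gst-44 passed in both genotypes, at 5.27 and 1.68 in ns889 and 8.05 and 5.95 in WT, and gst-38 stands at 4.14 in ns889 and 0.60 in WT.

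The difference between both mold responses, taken as the response of ns889 minus the response of WT, was tested as an interaction. gst-44 was the only member that passed: the log2 response of ns889 minus that of WT was -4.27 ± 0.50 (adjusted p = 0.00281). Thus none of 48 members was higher and 1 was lower, beside 0.0353% higher and 0.0942% lower among all genes. At an unadjusted p under 0.05, 6 of 48 members were higher and 6 of 48 lower. Among all 16980 genes 498 were higher (2.93%) and 256 lower (1.51%) at that threshold. DESeq2 called 2 members higher (gst-38 and gst-4) and 2 lower (gst-44 and gst-5), beside 0.259% and 0.188% of all genes, and limma-voom called none. For gst-44 the adjusted p with limma-voom was 0.19.

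The other members with large differences did not pass this test. The difference was 3.54 ± 0.67 for gst-38 (adjusted p = 0.116), 1.45 ± 0.28 for gst-4 (adjusted p = 0.122), -1.36 ± 0.30 for gst-5 (adjusted p = 0.236) and -2.78 ± 0.84 for gst-33 (adjusted p = 0.786). For gst-4 the adjusted p was 0.0106 without WT without mold replicate 1, and for gst-38 it was 0.0118 without ns889 with mold replicate 3. gst-13 (0.63 ± 0.26 in the fit of all replicates, adjusted p = 0.87) also passed as higher without WT without mold replicate 1, and gst-5 passed as lower without WT with mold replicate 3. For gst-33, the scarce reads without mold in both genotypes go with the largest standard error of these 4 genes.

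Comparing the genotypes on mold, 3 of 48 members were higher in ns889 (6.25%) and 5 were lower (10.42%), beside 5.12% higher and 1.61% lower among all genes tested. This comparison uses the same replicates with mold as the comparisons above. gst-38, gst-4 and gst-1 were higher in ns889, and gst-44, gst-33, gst-5, gst-24 and gst-39 were lower. The median log2 fold change was -0.10 for the members and -0.01 for all genes.

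gst-44 had 1.69, 1.86 and 0.817 CPM in ns889 with mold, against 35.7, 77.8 and 41.4 CPM in WT with mold, a log2 fold change of -5.15 ± 0.36 (adjusted p = 7.28e-06). gst-33 had 6.6, 5.45 and 2.17 CPM in ns889 with mold, against 93.5, 124 and 57.3 CPM in WT with mold, a log2 fold change of -4.27 ± 0.42 (adjusted p = 0.000115). Both genes were lower in every ns889 replicate than in any WT replicate. gst-38 went the other way, with 51.1, 39.4 and 13.3 CPM in ns889 with mold, against 4.62, 3.11 and 1.78 CPM in WT with mold, a log2 fold change of 3.44 ± 0.49 (adjusted p = 0.00125). gst-4 had 73.4, 51.8 and 45 CPM in ns889 with mold, against 22.4, 22 and 18 CPM in WT with mold, a log2 fold change of 1.45 ± 0.20 (adjusted p = 0.000993). For these 4 genes the replicates of ns889 and WT did not overlap.

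gst-5 had 10.8, 9.1 and 8.96 CPM in ns889 with mold, against 29.2, 35 and 16.8 CPM in WT with mold (log2 fold change -1.49 ± 0.21, adjusted p = 0.00117). gst-24 averaged 2.28 ± 0.444 CPM in ns889 with mold and 4.64 ± 0.837 CPM in WT with mold (log2 fold change -1.02 ± 0.20, adjusted p = 0.00824). Smaller differences were found for gst-39, with 5.54 ± 0.421 CPM in ns889 with mold and 8.4 ± 1.36 CPM in WT with mold (log2 fold change -0.60 ± 0.16, adjusted p = 0.0484). Without mold, gst-24 (-0.498 ± 0.196, adjusted p = 0.302) and gst-39 (-0.477 ± 0.165, adjusted p = 0.208) were also lower in ns889, without overlap and without passing. The difference of the mold responses was -0.526 ± 0.277 for gst-24 (adjusted p = 0.87) and -0.124 ± 0.232 for gst-39 (adjusted p = 0.914). gst-1 averaged 149 ± 11.6 CPM in ns889 with mold and 117 ± 9.67 CPM in WT with mold (log2 fold change 0.35 ± 0.08, adjusted p = 0.0214). Of 22 sperm markers 4 were higher in ns889 with mold, 2 of 13 oocyte and eggshell markers were lower, and 1 of 8 epidermis and 1 of 6 neuron markers were higher. The part of these in the family's differences was not tested. The call of gst-39 was lost in 5 of the 6 fits that left out 1 replicate, all but that without WT with mold replicate 3, at an adjusted p of up to 0.158. That of gst-1 was lost without replicate 1 or 2 of ns889 and without replicate 2 or 3 of WT, at up to 0.0833.

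Without mold, no member passed between ns889 and WT in edgeR's test, where 2.42% of all genes were higher and 0.453% were lower. At an unadjusted p under 0.05 none of the members was higher and 7 (of 48) were lower, beside 1420 higher and 580 lower of 16980 genes at that threshold. DESeq2 called none higher and 4 lower (gst-39, gst-6, gst-7 and gsto-3), beside 3.55% and 1.22% of all genes, and limma-voom called none. Of the 4 named members, gst-33 and gst-44 were scarce and lower in every ns889 replicate than in any WT replicate, without passing. gst-33 had 0.133, 0.141 and 0.0906 CPM in ns889 without mold, against 0.177, 0.548 and 0.328 CPM in WT without mold (log2 fold change -1.49 ± 0.67, adjusted p = 0.41). gst-44 had 0.409, 0.562 and 0.392 CPM in ns889 without mold, against 0.751, 0.822 and 0.934 CPM in WT without mold (log2 fold change -0.88 ± 0.37, adjusted p = 0.354). The genotypes overlapped for gst-38 (-0.09 ± 0.47, adjusted p = 0.977) and gst-4 (-0.01 ± 0.20, adjusted p = 0.997). Replicates of ns889 also lay below those of WT for gst-7 (-0.274 ± 0.0808, adjusted p = 0.115), gst-6 (-0.578 ± 0.185, adjusted p = 0.157), gst-39 (-0.477 ± 0.165, adjusted p = 0.208) and gsto-3 (-0.315 ± 0.11, adjusted p = 0.215). Without WT without mold replicate 1, gst-39 and gst-6 passed as lower. In the same comparison 1 of 22 sperm markers was higher in ns889.

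Members that stood together in the genome were given by run. Of the 25 members in runs 7 passed in at least 1 comparison, and of the 23 tested members outside runs 7 did. Together these 14 were 29.2% of the 48 tested members, beside 13.4% of all tested genes that passed in at least 1 comparison. In the run of gst-6 to gst-9 only gst-6 passed in ns889, while its 3 neighbours had log2 fold changes between -0.73 and 0.39. On chromosome IV gst-4 had 0.82 in ns889, beside -0.385 for gst-3 and -0.48 for gst-2, neither of which passed. In the run that ends with gst-35 on chromosome II, gst-34 and gst-35 fell in WT, while gst-29 had 1.28 without passing. The counted exons of gst-2 share 89 bases with K08F4.15 on the other strand.

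**Figure D5:**
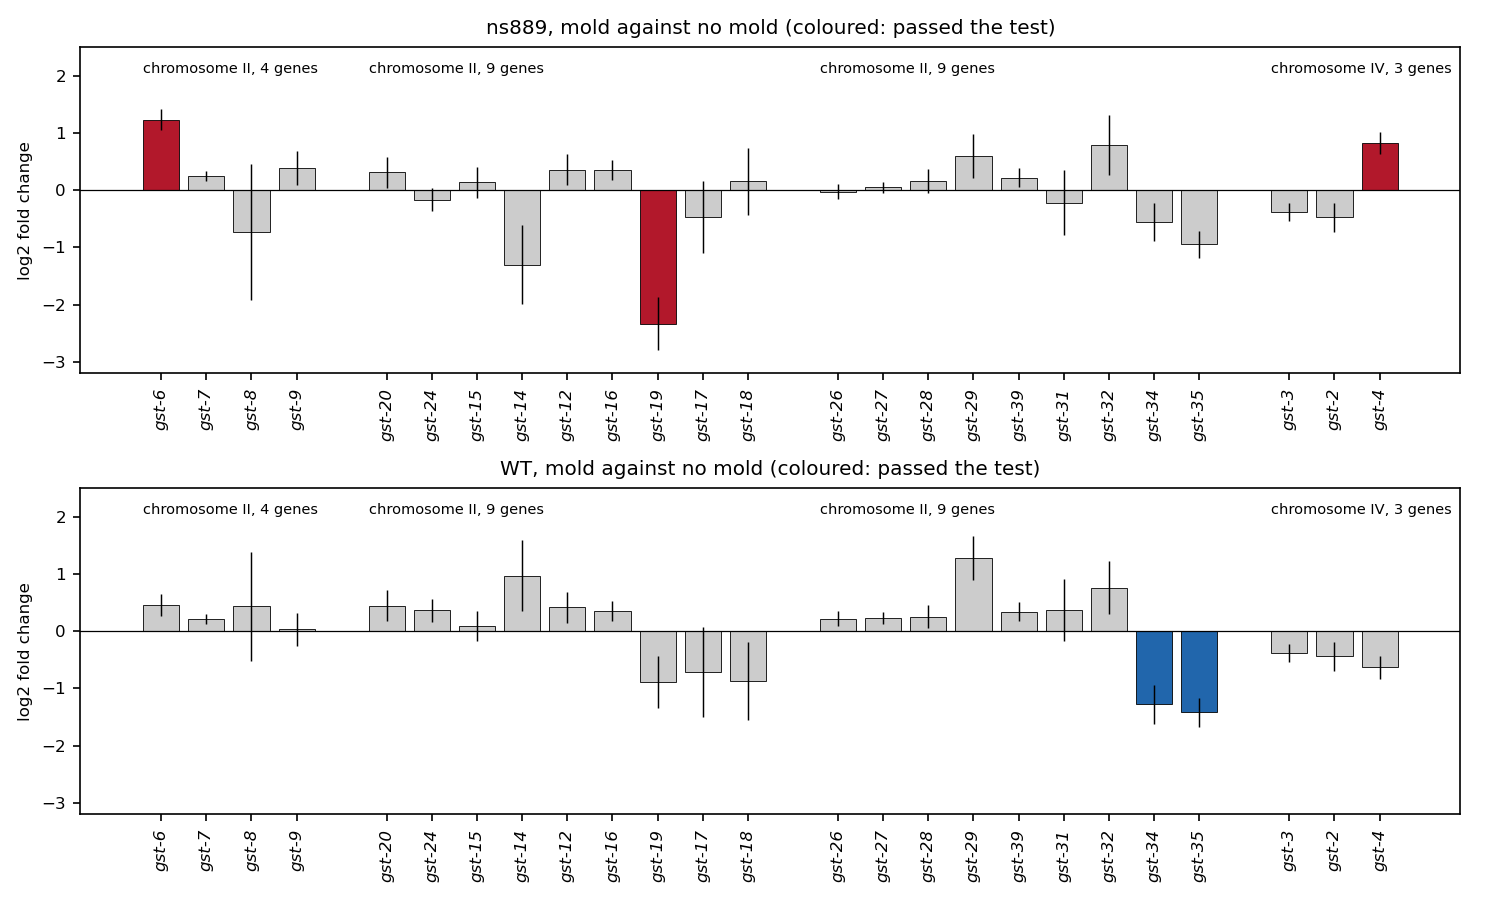
Log2 fold change with mold against without mold for the 25 members in the 4 runs of neighbours, in chromosome order, for ns889 above and WT below, with standard errors as lines. Coloured bars passed the test: gst-6, gst-19 and gst-4 in ns889, and gst-34 and gst-35 in WT.

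The 34 tested members that passed in no comparison included all 3 gsto- genes, both gstk- genes and gst-42. Enzyme classes were not derived from these data, and among genes named gst- only those of gst-1 and gst-42 are given here. The log2 fold changes of the 34 members ran from -1.3 to 0.79 in ns889 and from -1.4 to 1.41 in WT. Between the genotypes with mold they ran from -2.41 to 1.68. The lowest of these was that of gst-14, named here after its values were seen, with 0.0909, 0.0462 and 0.139 CPM in ns889 with mold, against 0.281, 0.534 and 0.667 CPM in WT with mold. The replicates did not overlap and rest on 5 to 15 reads in ns889 and 31 to 65 reads in WT (log2 fold change -2.41 ± 0.67, adjusted p = 0.0531), and gst-14 passed with RLE size factors, with DESeq2, without the filter, with only the 2 groups compared and without WT with mold replicate 1. gst-27 had 43.5, 49.5 and 53.9 CPM in ns889 with mold, against 45.3, 45.7 and 50.6 CPM in ns889 without mold, and these groups overlapped. In WT it had 59, 65 and 61.2 CPM with mold, against 46.3, 57.9 and 54 CPM without mold (log2 fold change 0.23 ± 0.10, adjusted p = 0.179). gst-10 had 49.1, 64.8 and 49.5 CPM in ns889 with mold, against 41.9, 44.1 and 48.8 CPM in ns889 without mold, a log2 fold change of 0.28 ± 0.19 (adjusted p = 0.556). In WT it had 36.4, 44.5 and 30.8 CPM with mold, against 37.9, 64.3 and 57.8 CPM without mold, a log2 fold change of -0.52 ± 0.19 (adjusted p = 0.112), and the difference of the responses was 0.80 ± 0.26 (adjusted p = 0.87). gsto-3 shares 54 bases of counted exon with gei-4 on the same strand, so its level is uncertain.

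Genes that make, recycle or use glutathione, export conjugates or control SKN-1 were followed in 7 lists with 41 genes, of which 40 were tested. Of these, 7 genes passed in at least 1 comparison (17.5%) and 33 in none, while 13.4% of all tested genes passed in at least 1. The log2 changes that passed lay between 0.33 and 0.98 in size. In ns889 with mold, gcs-1, which encodes the catalytic subunit of the rate-limiting enzyme of glutathione synthesis, had 195, 164 and 152 CPM, against 133, 130 and 123 CPM in ns889 without mold. All replicates with mold were higher, and the log2 fold change was 0.40 ± 0.08 (adjusted p = 0.0185). wdr-23, the repressor of SKN-1, had 109, 110 and 103 CPM in ns889 with mold, against 81.6, 79.7 and 79.8 CPM in ns889 without mold (log2 fold change 0.41 ± 0.07, adjusted p = 0.00471). skn-1 passed in WT, with 264, 266 and 311 CPM with mold, against 231, 220 and 218 CPM without mold (log2 fold change 0.33 ± 0.07, adjusted p = 0.0283). In the other genotype these genes changed with the same sign and no overlap of replicates, without passing. The log2 fold changes in WT were 0.12 ± 0.08 for gcs-1 (adjusted p = 0.363) and 0.215 ± 0.07 for wdr-23 (adjusted p = 0.0676). For skn-1 in ns889 it was 0.245 ± 0.07 (adjusted p = 0.102). No gene of the 7 lists passed in the difference of the responses.

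Of 8 genes of the MRP type, which encode ABC transporters for conjugates, mrp-3 rose in WT (log2 fold change 0.39 ± 0.08, adjusted p = 0.0241) and was lower in ns889 than in WT with mold (-0.48 ± 0.08, adjusted p = 0.00369). mrp-5, a heme exporter in worms, fell in ns889 (-0.43 ± 0.08, adjusted p = 0.0106). nit-1, a nitrilase gene controlled by SKN-1, fell in both genotypes, with a log2 fold change of -0.79 ± 0.19 in ns889 (adjusted p = 0.0441) and -0.87 ± 0.19 in WT (adjusted p = 0.0294). gpx-4, 1 of 8 glutathione peroxidase genes, was higher in ns889 than in WT with mold (0.98 ± 0.20, adjusted p = 0.0123) and without mold (0.85 ± 0.20, adjusted p = 0.0377). Its call without mold was lost when any 1 replicate was left out, at an adjusted p of 0.0549 to 0.177. The calls of wdr-23, of mrp-3 between the genotypes and of gpx-4 with mold passed in every fit without 1 replicate. In ns889 the call of gcs-1 was lost without replicate 1 with mold or any replicate without mold (adjusted p up to 0.0822), that of mrp-5 without either replicate 2 (up to 0.0913), and that of nit-1 in all fits but that without replicate 3 with mold (up to 0.197). In WT the call of skn-1 was lost without replicate 2 or 3 of either group (up to 0.123), that of mrp-3 without either replicate 2 (up to 0.106), and that of nit-1 without replicate 3 with mold or replicate 2 without mold (up to 0.0943). None of 5 glutaredoxin genes and none of 3 glyoxalase genes passed in any of the 5 comparisons.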

How the data were processed

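Stranded poly(A) libraries of whole animals were sequenced. The authors deposited raw counts per gene with exon coordinates and length; the tools named in the submitters' processing notes are STAR 2.4a, FastQC 0.11.12, featureCounts, limma 3.42.2 and edgeR 3.28.1, with the build WBcel235. Strand setting, annotation release and the treatment of reads that match several genes were not stated there. Replicates 2 and 3 of each group had 2 runs, which were summed. Chi-square per degree of freedom was 1.07 to 1.11 between the runs of a replicate (8 pairs) and 11.6 to 182 between replicates of a group.

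After filterByExpr and TMM scaling, the quasi-likelihood test of edgeR 4.0.16 was run (R 4.3.3; estimateDisp, robust glmQLFit, glmQLFTest) in 1 model of 4 group means over 12 replicates, with Benjamini-Hochberg adjustment over 16980 genes and a threshold of 0.05. CPM and RPKM were computed from the counts with TMM-scaled library sizes. Symbols came from a WormBase table that named 44017 of 46904 genes; 8 of 49 members had the same ends in Ensembl release 115. The tests were tried on simulated counts. Members and lists were chosen with earlier results of these data known. Named are members past the threshold in any comparison, gst-33, gst-44, gst-38 and gst-4, the 5 most abundant and the 3 nearest to the threshold in each mold response. The gene gclm-1 was not matched to a symbol. Alternatives were DESeq2 1.42.0, limma-voom (limma 3.58.1), RLE size factors, no filter, a mean of at least 5 CPM, only the 2 groups compared, a block for the replicate number, the first run alone, and each replicate left out. A fit without both WT replicates that stood apart (replicate 1 without mold, replicate 3 with mold) was added after seeing the data. Protein and promoter sequences were not analysed here.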

Additional observations from a re-analysis of the deposited data

Results flagged for a closer look

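The mold response of gst-44 differed between the genotypes in the test of the interaction: on the log2 scale, the response of ns889 minus that of WT was -4.27. Its adjusted p in edgeR's test was 0.00281, and it ranged from 0.00227 to 0.0255 when 1 replicate was left out. With limma-voom it was 0.19.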

How the results depend on the processing

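No call turned its direction. Calls of named genes stayed on their side of the threshold in 398 results and were lost in 81, and genes that had not passed stayed so in 212 and passed in 21. A result is a gene in a comparison under an alternative, so each fit gave many results and all share the same replicates. The rises of gst-33 and gst-44 in WT, the rises of gst-33, gst-38, gst-13, gst-6 and gst-1 in ns889, and the differences of gst-44, gst-33, gst-5, gst-24, gst-38 and gst-4 between ns889 and WT with mold passed in all alternatives whose filter kept them. The cause of the changes below was not tested. Shares over all genes are in brackets.

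DESeq2 called 7 members higher (3.09%) and 6 lower (10.4%) in WT, 5 lower in ns889 (2.3%), 4 lower in ns889 than in WT without mold (1.22%), 5 higher (8.76%) and 9 lower (2.81%) with mold, and 2 higher (0.259%) and 2 lower (0.188%) in the difference of the responses. With limma-voom 2 members were lower in ns889 (1.33%) and 0 in the difference (0.0648%). Without the filter 2 were lower in ns889 (0.902%). With a mean of at least 5 CPM 0 were lower in WT (1.19%), 0 in ns889 (1.39%) and 3 in ns889 than in WT with mold (1.51%). This filter leaves out the scarce members, gst-24 among them, and gst-39 no longer passed (adjusted p = 0.0841). The abundant gst-4 no longer passed as higher in ns889 with mold under this filter. With only the 2 groups compared 0 were lower in WT (0.22%) and 4 in ns889 (5.17%). Without both WT replicates that stood apart 8 were higher (9.55%) and 6 lower (12.9%) in WT, 3 lower in ns889 than in WT without mold (3.29%), 5 higher (7.57%) and 10 lower (3.32%) with mold, and 2 higher in the difference (0.494%). The adjusted p of the gst-44 difference was then 0.0555, and the 1 member called lower in the difference was gst-5 (0.169%).

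Leaving out 1 replicate gave 2 to 5 members higher (0.563 to 13.1%) and 1 to 6 lower (0.36 to 14.8%) in WT, and 5 to 7 higher (0.743 to 1.49%) and 0 to 2 lower (0.465 to 0.94%) in ns889. It gave 0 to 2 lower (0.25 to 1.22%) in ns889 than in WT without mold, 2 to 3 higher (2.37 to 7.7%) and 4 to 5 lower (0.679 to 3.15%) with mold, and 0 to 2 higher (0.0232 to 0.139%) and 1 to 2 lower (0.0639 to 0.122%) in the difference.

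Correlations between replicates of different groups did not settle whether replicate numbers pair the samples. Between same-numbered replicates 6 of 18 were over 0.1, with a median of 0.0349 and a range of -0.323 to 0.297. Between differently numbered replicates 9 of 36 were over 0.1, with a median of -0.0401 and a range of -0.316 to 0.433. With the replicate number as a block, the replicate block fit called 1 member higher in the difference, gst-38 (adjusted p = 0.0393). It also called gst-1 higher in WT and gst-27 lower in ns889 than in WT with mold. Among the members it lost the calls of gst-34 in WT, gst-4 in ns889 and gst-39 between the genotypes with mold, and of the other genes skn-1 in WT and nit-1 in both genotypes.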
